A study of Homo sapiens with 6 samples.

Results

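The mitochondrial ribosomal protein genes analysed here were all protein-coding genes whose symbol starts with MRPL or MRPS followed by a number. Of 155 genes with such a symbol in the count tables, 78 were protein-coding and were kept, and 77 pseudogenes, antisense genes and genes of other types were not. The tables listed 58219 gene identifiers in all, of which 15765 passed a filter on low counts and were tested, all 78 members among them. RNA was sequenced from U2OS cells, a human osteosarcoma line, in which an shRNA (a short hairpin RNA that silences a target transcript) was delivered by infection. In 3 libraries the shRNA was directed against E4F1 and in 3 control libraries it was a scramble sequence. In every library the cells were collected 72 h after infection, with puromycin selection in the last 48 h, and polyadenylated RNA was taken. The labels describe 3 independent pools of cells in each group, without saying whether pools with the same number were handled together.

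Mitochondria keep a ribosome of their own, which translates the few mRNAs of the mitochondrial genome, all of them for subunits of the respiratory chain and ATP synthase. Its rRNAs are made inside the organelle, whereas every one of its proteins is encoded in the nucleus, made in the cytosol and imported. MRPL symbols stand for proteins of the large subunit, which forms the peptide bond, and MRPS symbols for the small subunit, which binds and decodes the mRNA. Some of these proteins have a counterpart in the bacterial ribosome and others are specific to mitochondria. E4F1 is a zinc finger transcription factor known for binding promoters of genes of mitochondrial metabolism.

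The libraries held 14947085 to 16892139 reads in genes on the transcribed strand. E4F1, the target of the shRNA, had 3.18, 3.15 and 2.5 CPM (counts per 1000000 reads in genes) in the E4F1 shRNA libraries, against 15.6, 17.7 and 19.1 CPM in the control libraries (log2 fold change -2.57, SE 0.136, edgeR adjusted p = 7.65e-10). Among markers of a mesenchymal line, VIM, SPARC, COL1A1, FN1 and RUNX2 were present in every library at 25.4 CPM or more, while COL1A2 stood at 0.237 to 0.996 CPM in E4F1 shRNA libraries and 0.577 to 0.868 CPM in control libraries. The 6 mesenchymal markers summed to 5170 to 5370 CPM (E4F1 shRNA) and 5690 to 5890 CPM (control), without overlap, and the part of this in the members' values was not tested. The blood marker CD3E was at 0 in every library. Summed expression was 1.48 to 2.92 CPM (E4F1 shRNA) against 2.0 to 2.28 CPM (control) over the blood markers, and 1.56 to 1.96 CPM against 1.35 to 2.41 CPM over the endothelial markers. Of 5 epithelial markers, KRT8 and KRT18 were at 245 CPM or more in every library. The others were low. EPCAM stood at 6.85 to 7.54 CPM (E4F1 shRNA) and 4.88 to 5.93 CPM (control). CDH1 stood at 5.29 to 6.23 CPM (E4F1 shRNA) and 6.3 to 9.05 CPM (control), and KRT19 at 0.128 CPM or less in every library. The 5 summed to 733 to 764 CPM (E4F1 shRNA) and 702 to 770 CPM (control), nearly all of it KRT8 and KRT18.

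As a set, the mitochondrial ribosomal protein mRNAs stayed near their control level after E4F1 knockdown, and MRPL15 stood apart from the others. With an adjusted p of 0.05 over all genes tested as the threshold, 12 of the 78 members (15.4%) were called in edgeR's quasi-likelihood test, against 28.9% of all genes tested. Of these, 7 members (8.97%) rose, against 14.4% of all genes tested, and 5 members (6.41%) fell, against 14.4% of all genes tested. The median log2 fold change of the members was -0.013, beside -0.01 over all genes tested, and the median of its absolute value was 0.088, beside 0.179. Members also had higher levels (median of mean CPM 50.3, beside 21.5) and smaller standard errors (median 0.0676, beside 0.0914). The part of this in their smaller absolute changes was not tested. Members ranged from -0.77 for MRPL15 to 0.48 for MRPL34, with 36 above 0 and 42 below. In bulk RNA, fewer cells of a kind and less RNA per cell cannot be told apart.

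**Figure D1:**
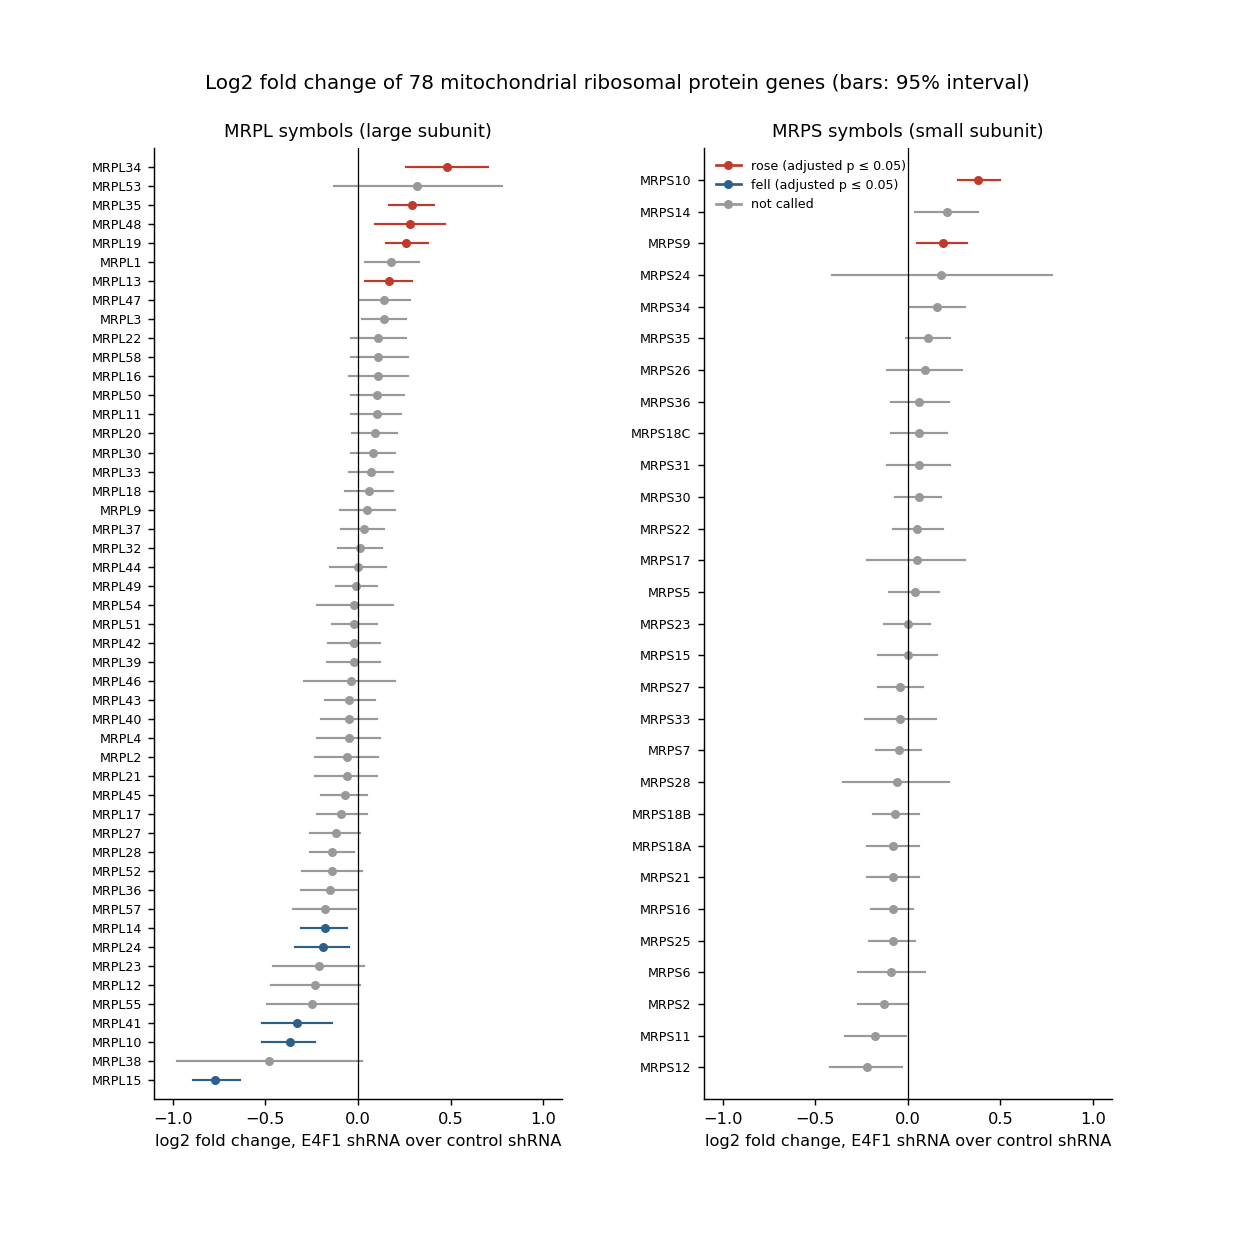
Log2 fold change of each of the 78 members, E4F1 shRNA over control shRNA, with its 95% interval (bars), for 49 MRPL genes on the left and 29 MRPS genes on the right, sorted from high to low. Most intervals cover 0; MRPL15 at -0.77 lies apart at the bottom of the left panel, and the 12 coloured members passed the test.

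Most members were measured closely enough to bound their change. The standard error of a member's log2 fold change had a median of 0.0676 and ran from 0.0536 to 0.283, and 72 of 78 members averaged at least 10 CPM over the 6 libraries. Of the 66 members not called, 54 had a 95% interval that lay within a 1.25-fold change in either direction. The other 12 reached that size: MRPL1, MRPL12, MRPL23, MRPL38, MRPL53, MRPL55, MRPL57, MRPS11, MRPS12, MRPS14, MRPS24 and MRPS28. Of the 12 members called, 5 changed by at least 1.25-fold: MRPL15, MRPL10, MRPL41, MRPL34 and MRPS10. In 25 of 78 members (32.1%) the 3 E4F1 shRNA libraries did not overlap the 3 control libraries, 10 of them higher and 15 lower, against 41.8% of all genes tested.

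MRPL15 encodes uL15m, a large-subunit protein with a bacterial counterpart. It lies on the plus strand at chr8:54135210-54147901 (GRCh38). The gene had 44.6, 47.1 and 44.9 CPM in the E4F1 shRNA libraries, against 79.9, 75.5 and 77.3 CPM in the control libraries. Every E4F1 shRNA library was thus below every control library by more than the spread within either group, with means of 45.5 ± 1.36 CPM and 77.5 ± 2.22 CPM (SD, n = 3 each). Mean expression fell by 41.3%, with a log2 fold change between -0.89 and -0.64 (95% interval; estimate -0.77, SE 0.06, edgeR adjusted p = 8.96e-08). No other member changed as much in either direction: the next in rank below 0 were MRPL38 at -0.48, which did not pass the test, and MRPL10 at -0.37.

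The other members that fell were all in the large subunit. MRPL10 encodes uL10m, at the base of the stalk that recruits translation factors, and had 40.1, 37.8 and 35.2 CPM in E4F1 shRNA libraries, against 47.5, 48.3 and 50.6 CPM in control libraries, without overlap. On the log2 scale it changed by -0.37 (SE 0.068, edgeR adjusted p = 0.000666). MRPL12, the protein that uL10m carries in that stalk, averaged 18.3 ± 3.61 CPM in E4F1 shRNA libraries and 21.5 ± 0.849 CPM in control libraries (SD, n = 3 each), its groups overlapped, and it was not called (log2 fold change -0.23, edgeR adjusted p = 0.143). MRPL41, a mitochondria-specific protein of the large subunit, had 24.0, 27.3 and 29.2 CPM in E4F1 shRNA libraries, against 30.5, 33.7 and 37.0 CPM in control libraries, and changed by -0.33 on the log2 scale (SE 0.088, edgeR adjusted p = 0.00952). The highest E4F1 shRNA library was just under the lowest control library, and the libraries within each group of MRPL41 were spread more widely than those of MRPL15. MRPL24, the mitochondrial form of bacterial L24, averaged 51.4 ± 3.23 CPM in E4F1 shRNA libraries and 58.8 ± 3.19 CPM in control libraries (SD, n = 3 each), a log2 fold change of -0.19 (edgeR adjusted p = 0.0389). MRPL14 encodes uL14m, the protein at the subunit interface to which the anti-association factor MALSU1 binds. It averaged 73.4 ± 3.03 CPM in E4F1 shRNA libraries and 83.4 ± 1.71 CPM in control libraries (SD, n = 3 each), a log2 fold change of -0.18 (edgeR adjusted p = 0.0217). The groups of MRPL24 and MRPL14 did not overlap, but both calls were near the threshold, and each was lost in 7 of 15 alternative fits. The MRPL14 call was lost without E4F1 shRNA library 1 or 3 or control library 1 or 3, and the MRPL24 call without any E4F1 shRNA library or control library 1 or 2. The MRPL41 call was lost in 2, one of them the fit without E4F1 shRNA library 1.

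Among the 7 members that rose, MRPL34 had the largest fold change and MRPS10 the smallest adjusted p. MRPL34, the counterpart of bacterial L34, had 14.1, 15.1 and 14.4 CPM in E4F1 shRNA libraries, against 9.35, 11.5 and 10.4 CPM in control libraries. The groups were apart, with the fewest reads of any member called, and the change was 0.48 on the log2 scale (SE 0.105, edgeR adjusted p = 0.00258). MRPS10 encodes uS10m, in the head of the small subunit, and had 91.8, 92.7 and 90.1 CPM in E4F1 shRNA libraries, against 68.0, 71.3 and 71.3 CPM in control libraries. Its libraries were tightly grouped on both sides, and the change was 0.38 on the log2 scale (SE 0.055, edgeR adjusted p = 7.47e-05).

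MRPL35 and MRPL19, both counterparts of bacterial large-subunit proteins, rose by similar amounts. MRPL35 averaged 91.0 ± 4.47 CPM in E4F1 shRNA libraries and 74.5 ± 1.05 CPM in control libraries (SD, n = 3 each; log2 fold change 0.29, edgeR adjusted p = 0.00127). MRPL19 averaged 138 ± 5.66 CPM in E4F1 shRNA libraries and 115 ± 4.0 CPM in control libraries (SD, n = 3 each; log2 fold change 0.26, edgeR adjusted p = 0.00181). In both genes the lowest E4F1 shRNA library was above the highest control library. MRPL48, a mitochondria-specific protein of the large subunit, had 34.9, 34.8 and 28.8 CPM in E4F1 shRNA libraries, against 25.3, 30.2 and 25.6 CPM in control libraries. Here E4F1 shRNA library 3 lay below control library 2, and the change was 0.28 on the log2 scale (SE 0.091, edgeR adjusted p = 0.0284). MRPS9, a small-subunit protein with a bacterial counterpart, averaged 111 ± 9.65 CPM in E4F1 shRNA libraries and 97.6 ± 4.98 CPM in control libraries (SD, n = 3 each), with overlap (log2 fold change 0.19, edgeR adjusted p = 0.0411). MRPL13, encoding uL13m, averaged 110 ± 5.09 CPM in E4F1 shRNA libraries and 97.9 ± 5.92 CPM in control libraries (SD, n = 3 each), and its lowest E4F1 shRNA library and its highest control library both rounded to 104 CPM (log2 fold change 0.17, edgeR adjusted p = 0.0452). The MRPS9 call was lost in 5 of 15 alternative fits and the MRPL13 call in 4, and the MRPL48 call was lost in 4 and its direction turned in 1. All 3 calls were lost without E4F1 shRNA library 1 or 2 or control library 3, and those of MRPS9 and MRPL48 also without control library 1.

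**Figure D2:**
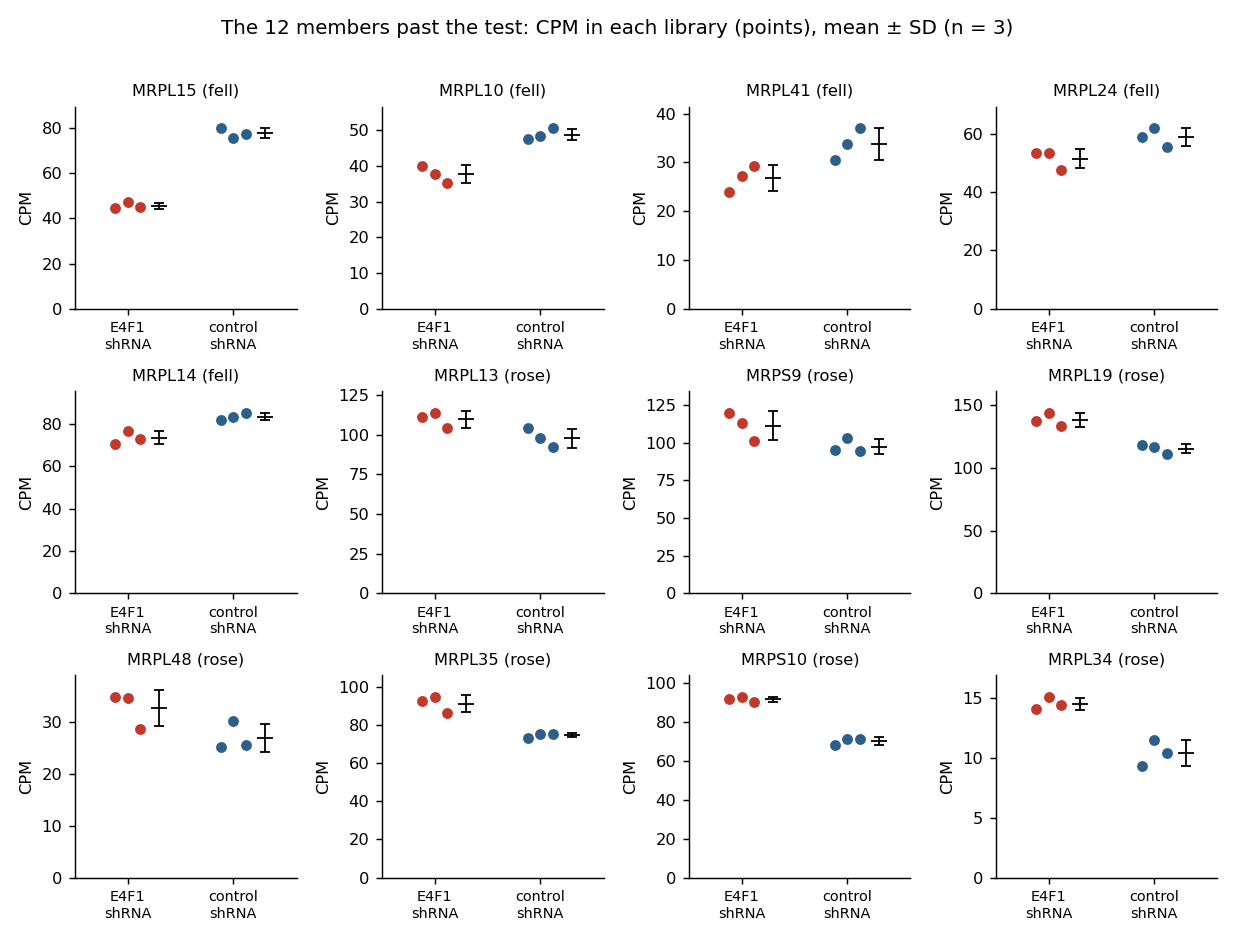
CPM of the 12 members that passed the test in each library (points), with mean ± SD (bars, n = 3), E4F1 shRNA on the left of each panel and control shRNA on the right, every axis starting at 0. MRPL15 shows the widest gap between groups, 45.5 against 77.5 CPM, while the points of MRPL48 and MRPS9 overlap between groups.

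The libraries also differed in the expression of cell cycle genes. A score over 22 of them (mean log2 CPM, centred over libraries) was 0.197, 0.2045 and 0.0932 in E4F1 shRNA libraries, against -0.2026, 0.02942 and -0.3215 in control libraries, so that control library 2 lay between the other control libraries and the E4F1 shRNA libraries. With this score as a covariate, 3 of the 12 members were still called (MRPL15, MRPS10 and MRPL24), and 667 of all genes tested. The score separates the groups, so its share and that of the knockdown cannot be told apart. Without control library 2, 16 members were called, 11 of them among the 12. Without E4F1 shRNA library 1, 6 were called, all of them among the 12. MRPL15 and MRPS10 were called in all 15 alternative fits, and MRPL10, MRPL19, MRPL34 and MRPL35 in all but the one with the score.

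The large and small subunits were set side by side as a description, since members of a subunit are not replicates. Of 49 MRPL genes, 5 rose and 5 fell (20.4% called, against 28.9% of all genes tested), with a median log2 fold change of -0.019. Of 29 MRPS genes, 2 rose and 0 fell (6.90% called), with a median of -0.002. Both shares were below that of all genes tested. The largest changes of both signs were thus in MRPL genes, while the medians of both subunits lay close to 0.

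Symbols do not always give the subunit. MRPS18A and MRPS30 encode the large-subunit proteins mL66 and mL65, and MRPS36 encodes KGD4, a component of the 2-oxoglutarate dehydrogenase complex. None of these was called: MRPS18A had a log2 fold change of -0.08, MRPS30 of 0.06 and MRPS36 of 0.06 (SE 0.066, 0.06 and 0.074). MRPS18B and MRPS18C, the paralogs of MRPS18A that do sit in the small subunit, were at -0.07 and 0.06 (SE 0.059 and 0.072) and were not called either. With subunits assigned by structure, 10 of 51 large-subunit genes (19.6%) and 2 of 26 small-subunit genes (7.69%) were called, against 28.9% of all genes tested.

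Summed over genes, the mRNAs of neither subunit, split by symbol, moved beyond the spread between libraries. The MRPL genes together had 2869, 2855 and 2683 CPM in the E4F1 shRNA libraries, against 2733, 2856 and 2763 CPM in the control libraries. The MRPS genes together had 1810, 1847 and 1744 CPM in the E4F1 shRNA libraries, against 1737, 1842 and 1786 CPM in the control libraries. Both sums overlapped between groups. The MRPL sum over the MRPS sum was 1.59, 1.55 and 1.54 in the E4F1 shRNA libraries. In the control libraries it was 1.57, 1.55 and 1.55. This ratio of summed mRNA levels was thus the same within the library spread, and the subunits themselves were not measured. All 78 members together averaged 4603 ± 153 CPM in E4F1 shRNA libraries and 4572 ± 116 CPM in control libraries (SD, n = 3 each).

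**Figure D3:**
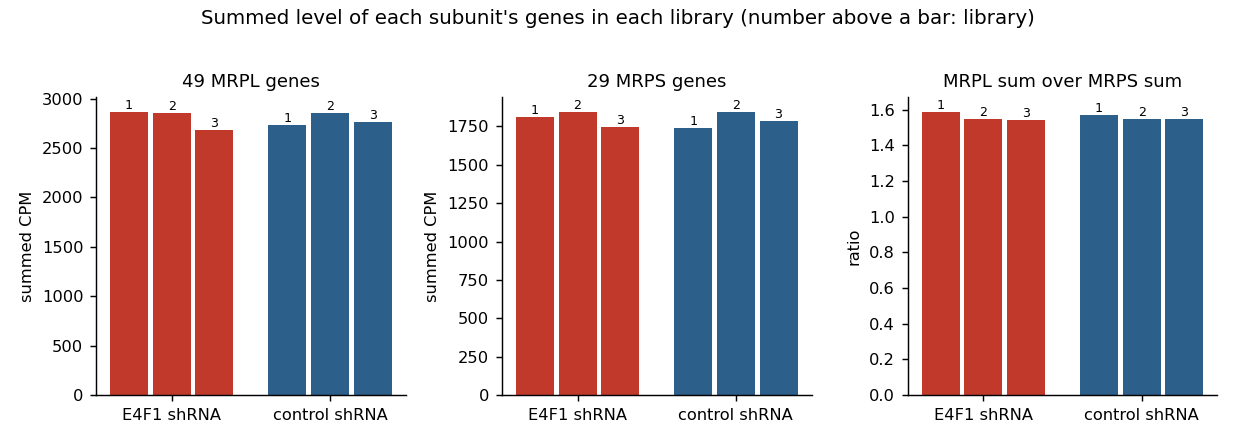
Summed CPM of the 49 MRPL genes, of the 29 MRPS genes, and their ratio, in each library (1 bar per library, its number above it), E4F1 shRNA left of control shRNA. Bars of both groups overlap in all 3 panels, and the ratio stays between 1.54 and 1.59.

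Split by descent, 10 of the 12 members called encode proteins with a bacterial counterpart. Of 46 such genes 6 rose and 4 fell (21.7% called), and of 31 mitochondria-specific genes 1 rose (MRPL48) and 1 fell (MRPL41), or 6.45% called. Both shares lay below the 28.9% of all genes tested. The median absolute log2 fold change was 0.129 for genes with a bacterial counterpart and 0.061 for mitochondria-specific genes. MRPS36 was in neither class. No test of this difference was made.

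Members at the ends of the range that were not called rested mostly on few reads. MRPL38, a mitochondria-specific large-subunit protein, had 20, 29 and 38 reads in the E4F1 shRNA libraries, against 33, 41 and 41 reads in the control libraries (log2 fold change -0.48, SE 0.238, edgeR adjusted p = 0.143). MRPL53, likewise specific to mitochondria, had 45, 46 and 41 reads in the E4F1 shRNA libraries, against 25, 44 and 31 reads in the control libraries (log2 fold change 0.32, SE 0.216, edgeR adjusted p = 0.28). In both genes the groups overlapped. Among MRPS genes the ends were better measured. MRPS14, a small-subunit protein with a bacterial counterpart, averaged 24.3 ± 0.439 CPM in E4F1 shRNA libraries and 21.0 ± 1.29 CPM in control libraries (SD, n = 3 each; log2 fold change 0.21, edgeR adjusted p = 0.0573). MRPS12, the counterpart of the bacterial decoding protein S12, averaged 27.1 ± 3.06 CPM in E4F1 shRNA libraries and 31.6 ± 3.18 CPM in control libraries (SD, n = 3 each; log2 fold change -0.22, edgeR adjusted p = 0.0826). MRPS11 was at -0.18 (edgeR adjusted p = 0.101). The groups of MRPS14, MRPS12 and MRPS11 did not overlap, yet none of the 3 passed the test.

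Levels per length, in CPM per kilobase of the median coding transcript, spanned a wide range within each subunit. MRPL51 was highest among MRPL genes, at 286 CPM per kilobase in E4F1 shRNA libraries and 290 in control libraries, followed by MRPL49 at 229 and 230. MRPL38 was lowest, at 0.932 in E4F1 shRNA libraries and 1.30 in control libraries, and MRPL53 second lowest at 3.46 and 2.75. Among MRPS genes MRPS16 stood at 108 CPM per kilobase in E4F1 shRNA libraries and 115 in control libraries, and MRPS27 at 87.4 and 89.8. MRPS24 was lowest, at 1.88 in E4F1 shRNA libraries and 1.64 in control libraries, then MRPS17 at 5.37 and 5.20. The low end coincided with annotation overlap: 23 members overlap another gene on the same strand, and all 6 members under 10 CPM (MRPL38, MRPL46, MRPL53, MRPS17, MRPS24 and MRPS28) were among them. Of 55 members with no such overlap, 0 were under 10 CPM. MRPS24, for example, overlaps the readthrough gene URGCP-MRPS24, and MRPL53 overlaps CCDC142. Overlap was taken from whole gene spans, not from exons. Only reads in exons shared with such a gene were assigned to no gene. How many reads this took was not counted, so the levels of these members are uncertain.

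Promoters of the members were searched for 5 words that transcription factors bind. Windows of 250 bases before to 50 after the start, from the RefSeq promoter table (GRCh38.p14), were found for 69 of 78 members and for 10391 protein-coding genes tested. The other 9 members were not searched, among them the called members MRPL15, MRPL10, MRPL35 and MRPL13. On either strand, CCGGAAG, the core that ETS factors such as GABPA bind, was in 29 member promoters (42.03%), against 18.91% of promoters of tested genes. ATGGCGGC, a YY1-like word, was in 19 (27.54%), against 6.10%, and in 17 of them it lay within the 50 bases after the start. GCATGCGC, an NRF1-like word, was in 6 (8.70%), against 5.46%. Both the ETS and the YY1-like word were in 5 member promoters and neither in 26. The E4F1-like word TGACGTAA and the cyclic AMP response element TGACGTCA were in 0 of 69, against 0.68% and 3.22%. The E4F1-like word is so rare that 0 of 69 does not set the members apart. It was the only spelling searched under that name, so other possible E4F1 sites were not covered. No word is contained in another, TGACGTAA and TGACGTCA share their TGACGT, and a match describes letters only.

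**Figure D4:**
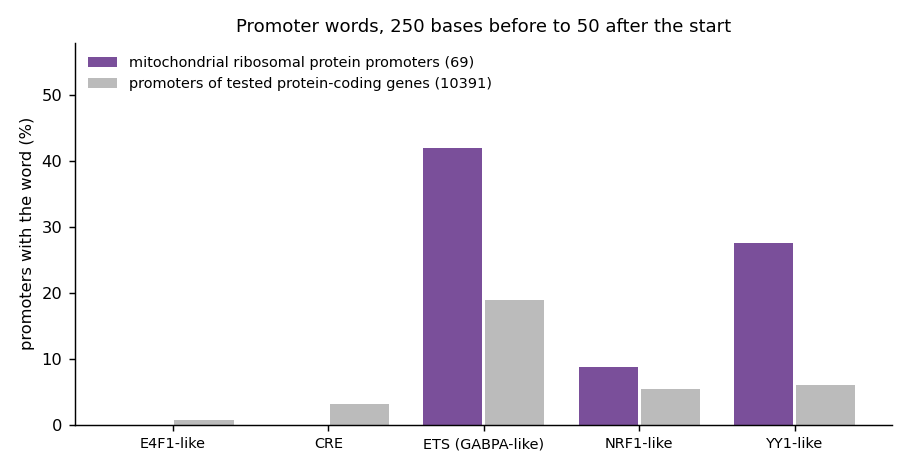
Share of promoters (%) that hold each word on either strand in a window of 250 bases before to 50 after the start, for 69 mitochondrial ribosomal protein genes (purple) and for 10391 tested protein-coding genes (grey). The ETS word stands at 42.03% against 18.91% and the YY1-like word at 27.54% against 6.10%, while these 69 members have no match to the E4F1-like word or the cyclic AMP response element. MRPL15 has no window and is not among the 69.

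Among the members called, 5 that rose and 3 that fell had a promoter in the table. The YY1-like word was in 3 of the 5 that rose (MRPL19, MRPS9, MRPS10) and the ETS word in 2 (MRPL48, MRPS10). None of the words was in the 3 that fell (MRPL14, MRPL24, MRPL41). So few promoters allow no comparison of the 2 directions, and MRPL34, which rose most, also held none of the words. Windows of 3 members that rose and 2 that fell are printed as examples with and without the words, each 5′ to 3′ on the gene's strand, with the words in capitals, where GCCGCCAT is ATGGCGGC on the other strand. They lie at chr6:42217812-42218111 (minus strand, MRPS10), chr2:75646533-75646832 (plus, MRPL19), chr19:17292323-17292622 (plus, MRPL34), chr9:137551629-137551928 (plus, MRPL41) and chr6:44127259-44127558 (minus, MRPL14).
MRPS10: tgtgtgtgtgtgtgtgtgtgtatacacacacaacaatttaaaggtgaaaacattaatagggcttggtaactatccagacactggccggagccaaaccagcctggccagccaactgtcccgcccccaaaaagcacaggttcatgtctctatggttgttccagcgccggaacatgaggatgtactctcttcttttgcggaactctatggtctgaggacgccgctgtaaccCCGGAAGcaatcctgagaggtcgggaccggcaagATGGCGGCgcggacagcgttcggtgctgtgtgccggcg
MRPL19: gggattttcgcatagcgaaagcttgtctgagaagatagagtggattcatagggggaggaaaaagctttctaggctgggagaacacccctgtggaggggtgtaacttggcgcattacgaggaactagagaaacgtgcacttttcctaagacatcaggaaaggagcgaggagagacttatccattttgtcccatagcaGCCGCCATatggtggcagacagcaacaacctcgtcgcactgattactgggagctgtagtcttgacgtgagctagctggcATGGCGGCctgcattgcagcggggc
MRPL34: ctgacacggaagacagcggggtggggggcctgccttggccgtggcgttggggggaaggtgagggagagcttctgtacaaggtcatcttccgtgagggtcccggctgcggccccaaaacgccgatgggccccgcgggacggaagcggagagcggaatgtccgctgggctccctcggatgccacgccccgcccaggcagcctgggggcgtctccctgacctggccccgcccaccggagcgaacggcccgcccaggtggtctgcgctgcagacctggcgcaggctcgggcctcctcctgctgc
MRPL41: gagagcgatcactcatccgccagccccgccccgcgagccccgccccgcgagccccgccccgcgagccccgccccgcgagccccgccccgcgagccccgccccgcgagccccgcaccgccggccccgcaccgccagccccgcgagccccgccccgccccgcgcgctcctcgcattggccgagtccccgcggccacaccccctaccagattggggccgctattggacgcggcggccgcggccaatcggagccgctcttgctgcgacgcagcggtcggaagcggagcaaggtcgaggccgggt
MRPL14: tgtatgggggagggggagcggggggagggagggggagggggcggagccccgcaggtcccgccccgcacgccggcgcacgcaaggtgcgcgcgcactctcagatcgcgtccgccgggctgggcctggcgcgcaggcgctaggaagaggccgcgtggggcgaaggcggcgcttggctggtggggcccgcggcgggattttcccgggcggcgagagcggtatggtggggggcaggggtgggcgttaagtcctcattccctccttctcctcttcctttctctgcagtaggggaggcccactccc
In MRPS10 the ETS word begins at -22 and the YY1-like word at 12 relative to the start, and MRPL19 holds the YY1-like word on each strand. The MRPL34, MRPL41 and MRPL14 windows hold none of the 5 words.

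Many members share a start region with a gene on the other strand. Within 1000 bases, 34 members had such a neighbour, in 34 pairs, of which MRPL46 and MRPS11 form one with each other. Of 30 pairs with both genes tested, 9 neighbours were called, 4 higher and 5 lower, a share near the 28.9% of all genes tested, and in 2 pairs both genes were called. MRPL13 and MTBP, whose annotated ends overlap by 2 bases at the start, both rose, with log2 fold changes of 0.17 and 0.39 (edgeR adjusted p = 0.0452 and 0.00143). MRPL14 and TMEM63B both fell, at -0.18 and -0.31 (edgeR adjusted p = 0.0217 and 0.00376), and the annotated genes overlap by 543 bases at the start. The neighbour of MRPL10, LRRC46 at 93 bases, was at -0.82 but was not called (edgeR adjusted p = 0.0811), and that of MRPL41, PNPLA7, was at -0.38 (edgeR adjusted p = 0.401). MRPL15, MRPS10, MRPL34, MRPL35, MRPL19, MRPL24 and MRPL48 had no neighbour within this distance, and AC010884.1 beside MRPS9 was not tested. Of 5 neighbours with a known mitochondrial role other than MRPL46 and MRPS11, 2 fell while the member was not called: NDUFS6, a complex I subunit, beside MRPL36 (-0.21 against -0.15, edgeR adjusted p = 0.0158 for NDUFS6), and TWNK, the mitochondrial DNA helicase, beside MRPL43 (-0.23 against -0.05, edgeR adjusted p = 0.00953 for TWNK). The other 3 were not called: NDUFB5 beside MRPL47 was at -0.12, SARS2 beside MRPS12 at 0.0 and PTCD2 beside MRPS27 at 0.09 (edgeR adjusted p = 0.164, 0.996 and 0.419).

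The rest of the mitochondrial translation apparatus was read from the same fit. Of 5 mitoribosome proteins with other symbols (DAP3, PTCD3, AURKAIP1, CHCHD1 and GADD45GIP1) 0 were called, with log2 fold changes of -0.07 to 0.10. Of 30 assembly factors 29 were tested, and 0 rose and 2 fell, with a median of -0.039. SPG7, which encodes paraplegin, a subunit of the protease that matures MRPL32, averaged 53.3 ± 0.254 CPM in E4F1 shRNA libraries and 63.8 ± 1.56 CPM in control libraries (SD, n = 3 each; log2 fold change -0.26, edgeR adjusted p = 0.00318). YBEY, an endoribonuclease needed for small-subunit assembly, averaged 4.04 ± 0.357 CPM in E4F1 shRNA libraries and 5.42 ± 0.481 CPM in control libraries (SD, n = 3 each; log2 fold change -0.43, edgeR adjusted p = 0.0422). The YBEY call was near the threshold and rested on 61 to 91 reads per library. Of 19 factors of mitochondrial translation, among them initiation, elongation and release factors and proteins that stabilise the mRNAs or insert the products into the membrane, 0 were called, and their median was -0.048. Of the assembly factors 6.90% were called, against 28.9% of all genes tested, and the other lists here had no call. Like the ribosomal proteins, these nuclear genes lay mostly near 0.

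The mRNAs and rRNAs encoded by the mitochondrial genome mostly fell. Of the 13 mRNAs that this ribosome translates, 10 fell (76.9%) and 1 rose (7.69%), against 14.4% each way of all genes tested, with a median of -0.259. MT-ND4, a complex I subunit, averaged 4910 ± 372 CPM in E4F1 shRNA libraries and 6180 ± 216 CPM in control libraries (SD, n = 3 each; log2 fold change -0.33, edgeR adjusted p = 0.000683). MT-ND5 and MT-CO1 were both at -0.29, MT-CO3 was at -0.32 and MT-CO2 at -0.33 (edgeR adjusted p = 0.001 to 0.00172). MT-ND6, the only one of the 13 on the light strand, rose (657 ± 81.9 CPM in E4F1 shRNA libraries and 504 ± 60.0 CPM in control libraries, SD, n = 3 each; log2 fold change 0.38, edgeR adjusted p = 0.00264). Both rRNAs fell, MT-RNR2 of the large subunit by 0.36 and MT-RNR1 of the small subunit by 0.22 on the log2 scale (edgeR adjusted p = 0.000332 and 0.00798). The libraries were made from polyadenylated RNA, so the levels of these rRNAs and mRNAs, MT-ND6 included, hold only the polyadenylated portion.

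Cytosolic ribosomal proteins, the set most like the members in function, were taken as genes with RPL or RPS symbols. Of 87 tested, 0 rose, against 14.4% of all genes tested, and 26 fell, against 14.4%. In all, 29.9% were called, near the 28.9% of all genes tested, and the median log2 fold change was -0.098, beside -0.013 for the members. The list took in RPS19BP1, which encodes a protein that binds RPS19 and fell, and without it 25 of 86 fell (median -0.097). RPL28 averaged 236 ± 9.53 CPM in E4F1 shRNA libraries and 287 ± 25.5 CPM in control libraries (SD, n = 3 each; log2 fold change -0.28, edgeR adjusted p = 0.00296). RPS19, RPS20, RPL37A and RPS28 were at -0.27, -0.22, -0.21 and -0.38 (edgeR adjusted p = 0.00357 to 0.00438). No test of the difference between the 2 sets was made.

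**Figure D5:**
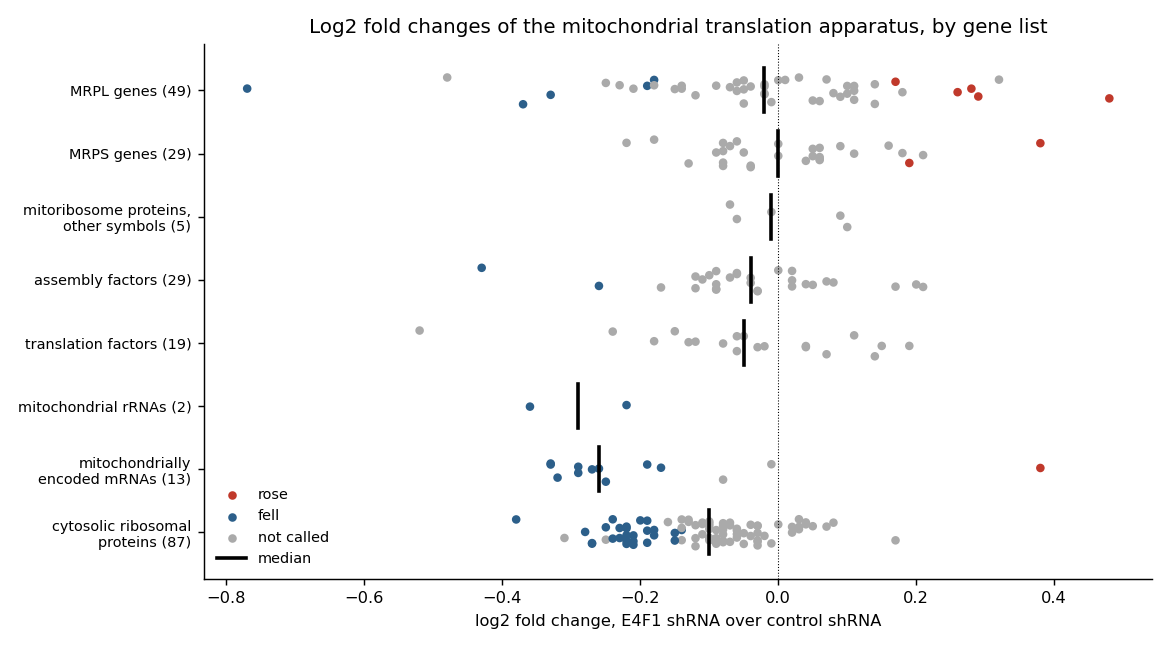
Log2 fold change, E4F1 shRNA over control shRNA, of every tested gene of 8 lists (points, number of genes in brackets; black bar, median). MRPL and MRPS genes, assembly factors and translation factors centre near 0, cytosolic ribosomal proteins at -0.098 and mitochondrially encoded mRNAs at -0.259.

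The heptamer CTTATCT in 3′ UTRs, known from an earlier scan of these data, was also looked up in the members. Of 1643 tested genes with it in a 3′ UTR, 37.4% rose and 8.30% fell, against 13.7% and 16.5% of 11445 genes without it. Since the heptamer came from that scan of the same data, this difference is no independent support for it. The heptamer was in 3 of 78 members, too few for a comparison, and none of these was called: MRPL22 was at 0.11, MRPL42 at -0.02 and MRPL43 at -0.05. Their sites are shown with the heptamer in capitals.
MRPL22: tcccacccaatCTTATCTcaaattgtaat
MRPL42: atccagctcagCTTATCTtggctggactt
MRPL43: gagattcactcCTTATCTatgaagaacat
None of the 7 members that rose and none of the 5 that fell held the heptamer in an annotated 3′ UTR.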

How the data were processed

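Counts of reads per gene were deposited for each of the 6 libraries by the authors, in 3 columns: without regard to strand, forward strand and reverse strand. Per the submitters' processing notes, bcl2fastq 2.20 and STAR 2.5.1b were used with build GRCh38; no annotation release is given in these sources. The reverse-strand counts were used. Reads that were not mapped, in no gene, on several places or in several genes (27.1% to 31.7% of each table) stayed out of library sizes. Because STAR's gene counts leave out multimapping reads, members with a pseudogene named after them (34 of 78) are uncertain to that extent.

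Identifiers were matched without version to GENCODE 29 (57878 of 58219). In R 4.3.3, edgeR 4.0.16 (filterByExpr, TMM scaling, glmQLFit and glmQLFTest, two-sided) was fitted on group over all 6 libraries, with Benjamini-Hochberg adjustment over 15765 genes and a threshold of 0.05. The procedure was tested on simulated data. CPM are TMM-scaled counts per 1000000 reads in genes. Intervals are 95% intervals of the fit. P-values measure the spread between 3 pools per group. Alternatives were DESeq2 1.42.0, limma-voom 3.58.1, other scalings and filters, counts ignoring strand, a cell cycle covariate, a replicate block and leaving out each library.

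The members and gene lists were chosen with earlier results of these data known. Named were all members called, the 2 highest and 2 lowest fold changes and levels per kilobase in each subunit, symbols that do not give the subunit, divergent neighbours of called members, and in each list up to 6 genes with the smallest adjusted p. MRPL12, the other members and the other neighbours named outside this rule were chosen after their values were seen. The heptamer CTTATCT came from an earlier scan of these data. Promoters absent from the table were not analysed, and a few genes that the rule names are not reported here.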

Additional observations from a re-analysis of the deposited data

How the results depend on the processing

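MRPL15 (log2 fold change -0.79 to -0.73) and MRPS10 (0.36 to 0.40) kept direction and call in all 15 alternatives, and DESeq2 size factors, counts ignoring strand, limma-voom and the stricter filter called the same 12 members. With the score of cell cycle genes as a covariate, 667 genes were called in all, 1 member higher and 2 lower, the median log2 fold change was -0.095 for all members, -0.111 for MRPL and -0.05 for MRPS genes, and MRPL48 reversed to -0.03 (edgeR adjusted p = 0.94). The cause was not tested. DESeq2's Wald test and the fit with no low-count filter each called 3 members lower, losing MRPL14 and MRPL24. Without the filter more genes enter both the fit and the adjustment, and the cause of the lost calls was not tested. Leaving out each library in turn, the count ran from 3031 to 5370 for all genes, 4 to 11 for members higher and 2 to 5 for members lower, with 6 members called without E4F1 shRNA library 1, 8 without library 2 and 13 without library 3, and 8, 16 and 8 without control libraries 1, 2 and 3. Member medians then ran from -0.016 to 0.028. Library totals as the only scaling added MRPL1 and MRPL3. The replicate number as a block gave 14 members (8 higher, 6 lower), adding MRPL1 and MRPS12, and 4865 genes; since deviations of same-numbered libraries correlated at 0.00704, 0.0471 and 0.0477, the numbers were not taken as pairs. A window of 100 bases before the start gave 36.23% of member promoters with the ETS word, 26.09% with the YY1-like and 5.80% with the NRF1-like word. Within 300 bases, 2 rather than 5 called members had a divergent neighbour. Leaving RPS19BP1 out of the cytosolic list, chosen after seeing the data, gave 25 genes lower in place of 26. Precision is limited by 3 libraries per group and, for members under 10 CPM, by depth.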

Other observations

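Reads on the strand opposite to the gene model were few, and members gave 0 calls there. Of 50 members with enough forward-strand reads to be tested, 0 were called by edgeR's quasi-likelihood test and 8 had an unadjusted p under 0.05, beside 328 of 8648 genes called (3.79%) and 1366 at an unadjusted p under 0.05. The median log2 fold change on this strand was 0.157 for the members tested and -0.004 for all genes tested there, and the cause was not tested. No other tool was run on the forward-strand counts.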
